A study of Mus musculus with 3 samples.

Results

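The p200 genes Ifi202b, Ifi203, Ifi204, Ifi205 and Aim2, members of the PYHIN family, were examined on the 3 single-colour arrays of Hepa1c1c7 cells. The 5 genes were chosen by name because the signal of Ifi202b was high on the Mst1r vector array. The difference of Ifi202b between the Mst1r vector and empty vector arrays is therefore a description. Probes were found by matching the RefSeq accession of each spot to a mouse gene symbol. Of the 5 genes, 4 had a matched probe, with 7 probes among the 56605 gene probes of the array. Ifi203 had no matched probe and was not measured here. Each of the 4 measured genes had a probe well above background on at least 1 array. The array named 22907 genes in all. A further 9 PYHIN genes are in the RefSeq table, of which Ifi208, Ifi209, Ifi213, Ifi214 and Mndal had 7 probes together. Ifi206, Ifi207, Ifi211 and the pseudogene Ifi203-ps had no matched probe.

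Hepa1c1c7 is a mouse hepatoma cell line. The cells received an empty expression vector, an Mst1r clone or a Slpi clone, each clone holding the coding sequence. Mst1r is a receptor tyrosine kinase and Slpi a secreted protease inhibitor. All 3 groups were therefore given plasmid DNA with the same transfection reagent, and RNA was taken a day later. The study asked which genes change when either gene is overexpressed. The share of cells that took up a vector is not given in the sources used here, so a response in more cells and more RNA per responding cell cannot be told apart. Each group was 1 array, and no test between groups could be made. Each log2 difference is followed by the standard deviation (SD) that repeat spots of 1 array give for it, which holds no variation between cultures. Processed signals are listed in the order empty, Mst1r and Slpi vector unless an array is named.

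Between 46.7% and 48.5% of the gene probes were well above background on an array. Neither transfected gene was clearly higher on its own array. On none of the arrays was the Mst1r probe well above background, and the brighter Slpi probe gave 6459, 3843 and 6680. The study reports overexpression of Mst1r in Hepa1c1c7 cells by real-time PCR. Where the Mst1r probe lies relative to the transfected coding sequence is not given in the sources used here. Arrays are therefore called by their labels. Of 11 hepatocyte markers, 6 were well above background on all 3 arrays, among them Alb, Afp and Trf. Hnf4a, Apob and Ahsg stayed at background on every array. Of 11 markers of macrophages and lymphoid cells, 5 were well above background on all 3 arrays (Cd68, Csf1r, Itgam, Cd14 and Cd3e). Ptprc, Adgre1, Cd79a and Klrb1c were among those that stayed at background on every array. The summed scaled signal of the immune markers was 25.9, 31.3 and 27.1 in units of the 75th percentile of each array. The part of these markers in the p200 signals was not tested.

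PYHIN proteins join a pyrin domain, which binds other pyrin domains, to a HIN domain, which binds DNA. Aim2 senses double-stranded DNA in the cytosol and assembles an inflammasome through the adaptor Pycard, which activates caspase-1. The product of Ifi202b, p202, has HIN domains but no pyrin domain, and can hold Aim2 back from that assembly. Ifi204 encodes p204, a mainly nuclear protein that takes part in interferon responses to DNA and in the control of cell growth and differentiation. Many genes of the family are induced by interferons, and the mouse genes lie side by side on chromosome 1.

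The upstream sequences of the genes are shown first because the family is known for interferon control. RefSeq windows of GRCm38.p6 were at hand for 12 of the 14 PYHIN genes of the table, in 14 windows, and none for Ifi204. They hold the sequence of the reference mouse, not that of these cells. The 250 bases before each start were searched on both strands for GAAANNGAAA, the core of an interferon-stimulated response element (ISRE), and for TTCNNNGAA, the core of an interferon-gamma activated site (GAS), which reads the same on both strands. The motifs can overlap each other in part. The ISRE-type letters were present in 9 of the 12 genes and in 10 of the 14 windows. Over all 32851 windows of mouse genes the share was 2.98%. The GAS-type letters were present in 1 of the 12 genes, Ifi202b, and in 7.02% of all windows. The 12 genes are copies of one another in part, so that they are not independent of each other. A match is a run of letters and was not tested as a binding site.

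Whole upstream stretches are printed for the genes that the array results contrast, which are Ifi202b, Ifi205 and Aim2. Capitals mark the GAS-type letters in Ifi202b and the ISRE-type letters in Ifi205, and Aim2 has neither. Each is written 5′ to 3′ on the strand of the gene and ends 1 base before the start.
Ifi202b (chr1:173982845-173983094, minus strand): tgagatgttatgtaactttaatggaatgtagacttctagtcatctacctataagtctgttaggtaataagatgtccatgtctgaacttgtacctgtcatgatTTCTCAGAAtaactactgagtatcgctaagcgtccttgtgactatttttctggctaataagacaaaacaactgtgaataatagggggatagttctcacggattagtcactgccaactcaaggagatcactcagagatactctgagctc
Ifi205 (chr1:174031756-174032005, minus strand): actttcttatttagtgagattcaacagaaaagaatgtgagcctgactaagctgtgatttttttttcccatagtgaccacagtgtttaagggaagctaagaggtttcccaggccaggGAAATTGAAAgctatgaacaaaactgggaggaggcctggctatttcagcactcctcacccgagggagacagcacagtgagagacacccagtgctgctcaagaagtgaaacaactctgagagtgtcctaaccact
Aim2 (chr1:173420354-173420603, plus strand): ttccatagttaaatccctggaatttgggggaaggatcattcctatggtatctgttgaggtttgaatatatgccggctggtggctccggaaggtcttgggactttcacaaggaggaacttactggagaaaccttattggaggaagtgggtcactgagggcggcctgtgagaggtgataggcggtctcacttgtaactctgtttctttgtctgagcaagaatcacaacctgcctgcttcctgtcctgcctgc

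The ISRE-type windows of the other genes are printed with 12 bases on each side, in the order of the genes along the chromosome, with the motif in capitals.
Ifi206 (chr1:173491337-173491370, minus strand, first capital 40 bases before the start): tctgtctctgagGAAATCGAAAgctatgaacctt
Ifi214 (chr1:173536015-173536048, minus strand, first capital 79 bases before the start): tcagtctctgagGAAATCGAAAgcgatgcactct
Ifi213 (chr1:173599324-173599357, minus strand, first capital 73 bases before the start): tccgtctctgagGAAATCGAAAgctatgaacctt
Ifi208 (chr1:173673595-173673628, plus strand, first capital 58 bases before the start): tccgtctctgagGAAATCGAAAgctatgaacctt
Ifi207 (chr1:173741829-173741862, minus strand, first capital 41 bases before the start): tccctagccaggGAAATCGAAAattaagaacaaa
Mndal (chr1:173880202-173880235, minus strand, first capital 36 bases before the start): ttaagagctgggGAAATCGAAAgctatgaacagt
Ifi211 (chr1:173913062-173913095, minus strand, first capital 37 bases before the start): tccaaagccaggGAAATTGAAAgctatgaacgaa
Ifi203 (chr1:173942506-173942539, minus strand, first capital 35 bases before the start): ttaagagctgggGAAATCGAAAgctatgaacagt

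The letters just before the motif and just after it were nearly the same in many of these genes, and the core GAAATCGAAA or GAAATTGAAA stood within 134 bases of the start in each. Mndal had a further match on the other strand in another window, 54 bases before the start of that window. Ifi209 had neither motif. Its stretch that lines up with the Ifi214 window differs from it at 3 of 34 bases, and 1 of them lies in the motif. Counted from 1 at the 5′ end of the motif of Ifi214, that change is G1T, and the aligned stretch of Ifi209 is printed with the place of the motif in capitals.
Ifi209 (chr1:173630768-173630801, plus strand, first capital 79 bases before the start): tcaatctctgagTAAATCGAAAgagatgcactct

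Several upstream windows were nearly identical. Ifi206 and Ifi208 shared 99.6% of 232 aligned bases, Ifi213 and Ifi208 99.1% of 235, Mndal and Ifi203 97.5% of 239 and Ifi214 and Ifi209 95.2% of 249. The upstream window of Ifi202b aligned with that of its neighbour Ifi205 over only 17 bases. Across the other genes this length ran from 3 bases (Aim2) to 225 (Ifi213, 64.0% identical). Probe sequences were not used here, so a signal given under 1 gene name can hold RNA of a close copy.

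On the Mst1r vector array, Ifi202b, Ifi204, Ifi205, Ifi209 and Mndal gave higher signals than on the other arrays, and Aim2 and Ifi208 lay close to the other arrays. Ifi202b went from background to a clear signal. On the Slpi vector array the family stayed near the empty vector array. After scaling, 7 of the 14 probes were at least 2-fold higher on the Mst1r vector array than on either other array, at a signal over 50. Of all gene probes, 1.58% were so against empty vector and 1.48% against Slpi vector. The genes were chosen from the contrast with empty vector, so nothing is read from these counts. The plot of probe signals shows values before scaling, on which 5 probes were at least 2-fold higher than with empty vector and 6 than with Slpi vector. Of all 56605 gene probes, 754 and 733 were so before scaling.

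**Figure D1:**
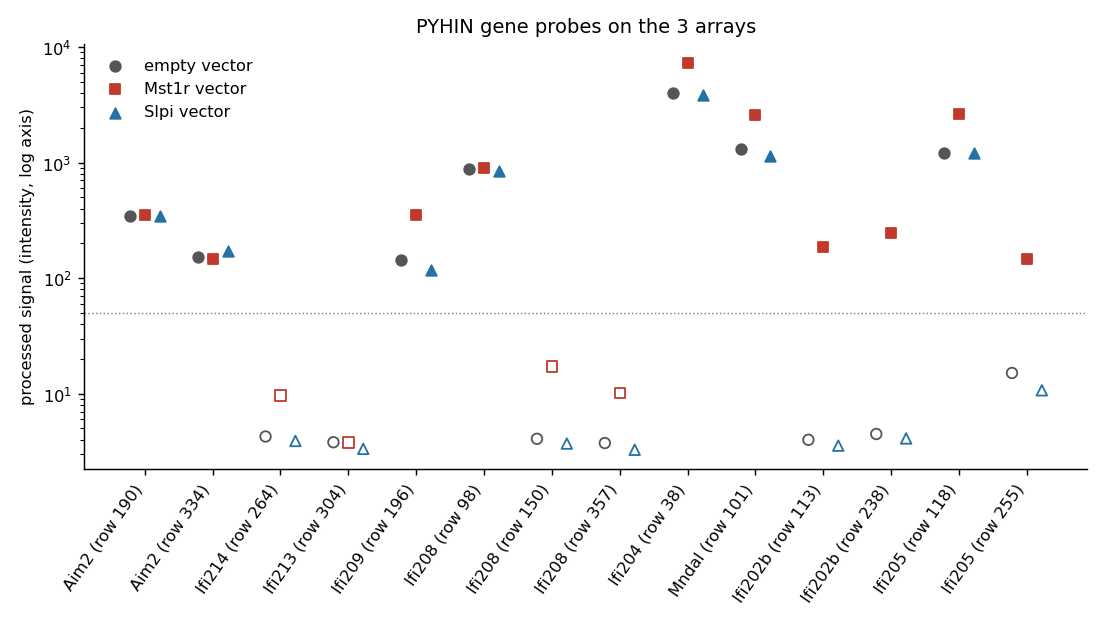
Processed signal (intensity, log axis) of the 14 PYHIN probes on the empty vector, Mst1r vector and Slpi vector arrays, 1 point per array, with genes in chromosomal order and the array row of each probe in brackets. Filled points were well above background and open points were not, and the dotted line marks a signal of 50. Both Ifi202b probes are filled on the Mst1r vector array only, at 185 and 247.

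Ifi202b was measured by 2 probes with different accessions, NM_008327 and NM_011940. The probe in row 238 had signals of 4.48, 247 and 4.10. The probe in row 113 gave 3.99, 185 and 3.55. Both were well above background with Mst1r vector only, and the other arrays lay at the floor of the signal. The software's own error of the Mst1r vector signal was 25.1 for row 238 and 19.0 for row 113. Since the dim side has only a bound, Ifi202b in row 238 was at least 15.3-fold higher on the Mst1r array than on the empty vector array, and in row 113 at least 11.5-fold higher. Against the Slpi array the bounds were at least 16.6-fold and at least 12.4-fold. In these bounds the dim array was set to the lowest signal that was well above background on it, 18.9 for empty vector and 16.6 for Slpi vector. With normexp background correction, which adds an offset of 50, the log2 difference from empty vector in row 238 was 2.54.

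Single bright spots also arose on these arrays without a target, mostly in the upper rows of the array. The lower rows, which hold 37512 of the 56605 gene probes, include the probes in row 150 and beyond, and the upper rows those up to row 118. In the upper rows of the Mst1r array, 27 of 736 control spots that were dark on both other arrays gave a signal over 50, and 3 of them were at least as bright as the Ifi202b probe in row 113. In the lower rows this was 2 of 1711 control spots, and the brightest gave 123. None of those 1711 was as bright as the Ifi202b probe in row 238 or the Ifi205 probe in row 255. In the lower rows of the Slpi array, 1 of 1699 such control spots gave a signal over 50, at 159, which is brighter than the Ifi205 probe in row 255 on the Mst1r array. Of the gene probes in the lower rows, 18626 were dark on the empty vector and Slpi vector arrays. On the Mst1r array 3 of these were at least as bright as the Ifi202b probe in row 238, itself included. The count for the Ifi205 probe in row 255 was 6. That probe is not among the 18626, as its empty vector signal was 15.1 and dark meant under 15. No spot of a PYHIN probe carried an outlier flag on any array.

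The pattern of Ifi202b was compared with that of other genes. In the lower rows, 275 of 37512 probes were well above background on the Mst1r array alone, from 147 named genes, and 27 of them had a signal over 50. Of the 275, 4 were at least as bright as Ifi202b, itself included. The nearest in log2 signal on that array was Cpt1b, which carries fatty acids into mitochondria of muscle, with signals of 11.7, 299 and 13.0. Gm4841 gave 4.92, 160 and 3.93. The dimmer Ifi205 probe in row 255 came next among the named genes. Ubd, a ubiquitin-like protein induced by inflammatory cytokines, gave 4.44, 83.2 and 4.08. Il19, a cytokine of the interleukin-10 family, gave 4.01, 76.4 and 6.40. The 5 were picked as well above background on the Mst1r array alone. Their lack of a clear signal on the other arrays was therefore fixed by that choice. The likeness rests on 3 arrays, and nothing is read from it.

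Ifi205, which lies next to Ifi202b, had 2 probes. The bright probe in row 118 gave 1222, 2641 and 1211. The Mst1r array was higher by 1.34 ± 0.12 (log2, spot SD) than the empty vector array, or 2.53-fold, and by 1.28 ± 0.12 than the Slpi array. The dim probe in row 255 gave 15.1, 147 and 10.7, and only the signal of 147 was well above background. The bounds were at least 9.12-fold higher than empty vector and at least 9.88-fold higher than Slpi vector. Both probes carry the accession NM_172648, and they had the same direction and different sizes. With normexp background correction the sizes lay closer, with log2 differences from empty vector of 1.56 in row 255 and 1.23 in row 118.

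Ifi204 had 1 probe, in row 38. Its signals were 4024, 7227 and 3826, and the software's own errors of them were 402, 723 and 383. The log2 difference of Mst1r vector was 1.07 ± 0.13 from empty vector and 1.07 ± 0.13 from Slpi vector, or 2.11-fold and 2.10-fold, just past 2-fold. The arrays with empty vector and Slpi vector differed by 0.01 ± 0.12. Ifi204 was under 2-fold with spike-in scaling (0.97) and without scaling (0.84), and it was higher with Mst1r vector under each scaling tried.

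Aim2, the DNA sensor, had 2 probes that were well above background on all 3 arrays. The probe in row 190 gave 347, 354 and 345. The probe in row 334 gave 152, 146 and 170. The log2 difference of Mst1r vector from empty vector was 0.26 ± 0.17 in row 190 and 0.17 ± 0.21 in row 334. In row 334 the sign turned without scaling, at -0.06. Slpi vector differed from empty vector by 0.07 ± 0.17 and 0.24 ± 0.21. With a single array per group these spot errors do not bound the difference between cultures.

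The other PYHIN genes with a signal were described in the same way. Mndal, a p200 gene named after human MNDA, gave 1314, 2580 and 1149. The Mst1r array was higher by 1.20 ± 0.12 than the empty vector array and by 1.32 ± 0.12 than the Slpi array. Without scaling the first value was 0.97, under 2-fold. Ifi209 gave 143, 350 and 117, with differences of 1.52 ± 0.19 and 1.73 ± 0.19 in the same comparisons. The Ifi208 probe in row 98 gave 879, 894 and 841, with a log2 difference of 0.25 ± 0.17 from empty vector.

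Further Ifi208 probes in rows 150 and 357, and the only probes of Ifi213 and Ifi214, never rose clear of background on the arrays. Their signals ran from 3.27 to 17.1. No fold is given for them. The Ifi208 probes thus gave different answers on whether a signal was present.

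**Figure D2:**
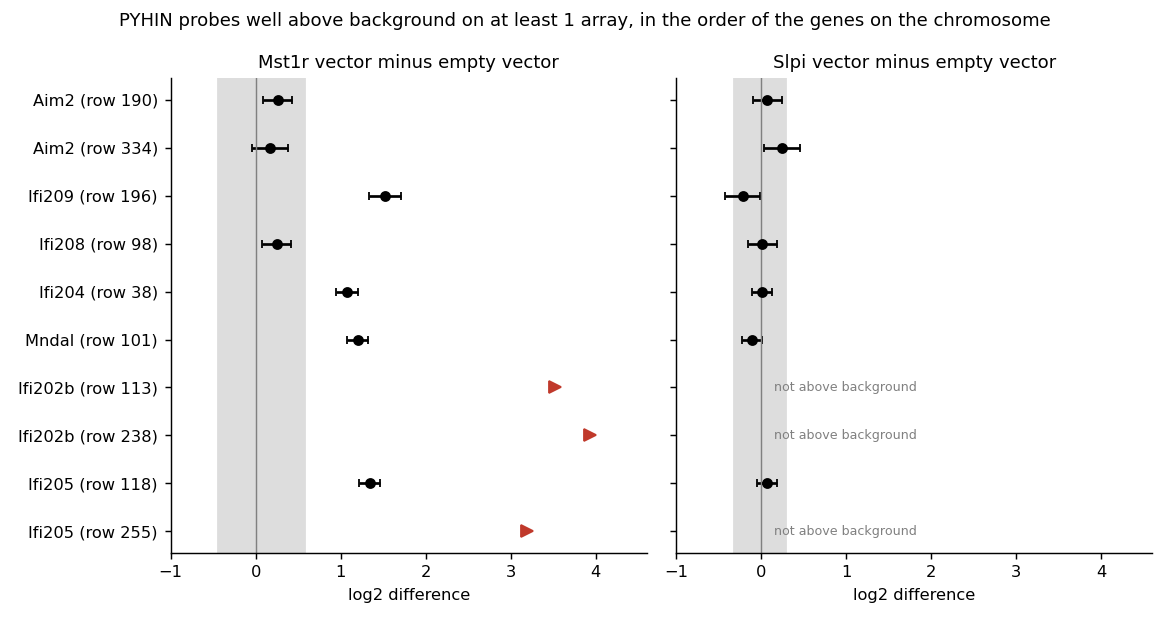
Log2 difference of scaled signal from empty vector for the 10 PYHIN probes well above background on at least 1 array, with Mst1r vector on the left and Slpi vector on the right. Bars are the SD from repeat spots of 1 array, triangles are lower bounds, and the grey band spans the 5th to 95th percentile of the 24870 probes detected on all 3 arrays. Ifi209, Ifi204, Mndal, Ifi202b and Ifi205 lie right of the band with Mst1r vector, and no measured probe does so with Slpi vector.

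A probe was called when the scaled difference reached 2-fold and the brighter array was over 50 and well above background. With Mst1r vector against empty vector, 5 of the 7 p200 probes were called higher (Ifi202b, Ifi204 and Ifi205) and 0 lower. Of all gene probes 1.58% were called higher and 1.23% lower. Since the gene choice used this contrast, nothing is read from that count. Of the 7 probes of the other PYHIN genes, 2 were called higher (Ifi209 and Mndal). In the lower rows, which held few stray bright spots, 2 of the 4 p200 probes were called higher (Ifi202b and Ifi205), and 0.664% of all probes there. Ifi209 was called there as well. At 10-fold, 3 of the 7 p200 probes were called higher by their measured difference, both of Ifi202b and the dim one of Ifi205, whose bound is lower, against 0.544% of all probes.

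With Slpi vector against empty vector, 0 of the 14 PYHIN probes were called higher or lower. Over all probes 0.965% were called higher and 1.12% lower. The 7 PYHIN probes detected on all arrays had log2 differences from -0.22 (Ifi209) to 0.24 (Aim2, row 334), with a median of 0.01, where the median of all 24870 such probes was 0.00. The sign of most of these small differences depended on the scaling. The median of all detected probes itself went from 0.17 with median scaling to -0.24 with spike-in scaling.

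With Mst1r vector against Slpi vector, 5 of the 7 p200 probes and 2 of the 7 other PYHIN probes were called higher, and 1.48% of all probes, with 0 of the 14 called lower against 0.972% of all. In the lower rows 2 of the 4 p200 probes were called higher, against 0.594%, and at 10-fold 3 of the 7, against 0.521% of all probes. This comparison shares the Mst1r vector array with the one above. The values stand side by side and do not add independent support. Without scaling, or with median scaling, Ifi204 differed from Slpi vector by 0.92 or 0.94 and was under 2-fold, and with normexp it differed by 0.99.

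The 7 PYHIN probes that were well above background on all 3 arrays had a median log2 difference of 1.07 between Mst1r vector and empty vector, and 4 of them reached 0.5. The median of all 24870 probes so detected was -0.04, and 6.39% of them reached 0.5. A difference at least as high as that of Ifi209 was found in 0.873% of these probes. The share was 1.14% for Ifi205, 1.38% for Mndal, 1.74% for Ifi204, 14.0% and 19.8% for the Aim2 probes and 14.3% for Ifi208. The scatter of all detected probes shows the same order. Nothing is read from the median, the count or the shares, as the genes were chosen from this contrast.

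**Figure D3:**
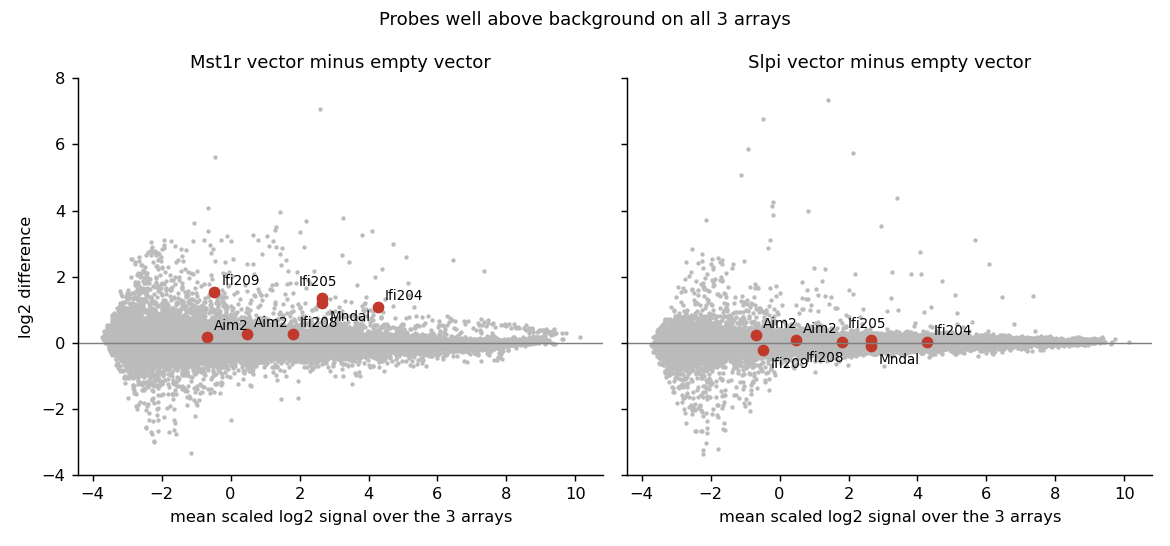
Log2 difference from empty vector against the mean scaled log2 signal for the 24870 probes well above background on all 3 arrays (grey), with Mst1r vector on the left and Slpi vector on the right. The 7 PYHIN probes are red and named, and 4 of them lie above 1 with Mst1r vector while all 7 lie between -0.22 and 0.24 with Slpi vector.

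Along chromosome 1 the RefSeq table gives the order Aim2, Ifi206, Ifi214, Ifi213, Ifi209, Ifi208, Ifi207, Ifi204, Ifi203-ps, Mndal, Ifi211, Ifi203, Ifi202b and Ifi205. Genes called higher with Mst1r vector stood at places 5, 8, 10, 13 and 14 of the 14, and the detected genes not called stood at places 1 and 6. The 10 genes on each side of this row, mostly olfactory receptor genes, were looked at after the values were seen. Of their 22 probes, 0 were well above background on all arrays and 6 on any array. The probe of Olfr432 in row 84 (5.06, 74.8 and 3.92) was among those called higher with Mst1r vector, and it lies in the rows with many stray bright spots.

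Of the genes with a called probe and an upstream window, Ifi205 and Mndal had ISRE-type letters, Ifi202b had GAS-type letters and Ifi209 had neither, as the printed windows show. Of the detected genes that were not called, Ifi208 had ISRE-type letters and Aim2 had neither. Ifi213 and Ifi214, which gave no signal well above background, also had ISRE-type letters. Ifi204, which was also called, had no window. A link between the letters and the calls was not tested.

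Genes that act with the family were described by lists, each gene by its brightest probe. Of all 14268 named genes well above background on at least 1 array, 2.77% were called higher with Mst1r vector and 1.91% lower, and the median log2 difference was -0.05. Of the inflammasome genes, 10 of 12 were detected, 1 was called higher and 0 lower, and the median was -0.02. Casp4, the caspase that senses bacterial lipopolysaccharide, gave 2869, 5501 and 3128, a difference of 1.17 ± 0.13 from empty vector. Pycard, the adaptor of Aim2, gave 406, 545 and 401 (0.66 ± 0.17) and was not called. Casp8 gave the lowest difference among those measured on both sides, -0.10 ± 0.12. Nlrc4 and Nlrp1b stayed at background on every array.

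All 15 genes of cytosolic DNA sensing were detected, 2 were called higher and 0 lower, with a median of 0.03. Ifnb1, which encodes interferon beta, gave 144, 383 and 122, a difference of 1.64 ± 0.19 from empty vector. Zbp1, a sensor of Z-form nucleic acids, gave 291, 567 and 310 (1.19 ± 0.17). Prkdc, the DNA-dependent protein kinase, gave 199, 127 and 217 (-0.42 ± 0.21). Ifnb1 and Zbp1 were named because they had the 2 highest differences of this list on the Mst1r vector array. Their values are therefore a description, and a link with the PYHIN genes was not tested.

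All 14 genes of interferon signalling were detected, 2 were called higher and 0 lower, with a median of 0.26 from empty vector. This median was 0.03 without scaling, where the median of all detected probes was -0.27. Both called genes encode inhibitors of cytokine signalling. Socs3 gave 2267, 6543 and 2147, a difference of 1.76 ± 0.13. Socs1 gave 134, 318 and 124 (1.48 ± 0.19). Ifngr1, a chain of the interferon gamma receptor, had the lowest difference at -0.37 ± 0.12.

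Of 14 genes whose products are known to bind or be affected by p202 and p204, 13 were detected, 1 was called higher and 0 lower, and the median was 0.01. The called gene was Fos, part of the AP-1 factor, which gave 160, 319 and 143 (1.22 ± 0.19). Jun, its partner, gave 1733, 1947 and 1827 (0.40 ± 0.12). Rbl1, a relative of the retinoblastoma protein, gave 1259, 831 and 1023 (-0.37 ± 0.15).

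The marker lists gave no called gene with Mst1r vector. Of the hepatocyte markers Alb (serum albumin) gave 5083, 6449 and 4966 (0.57 ± 0.14), Krt8 0.03 ± 0.081 and Trf (transferrin) -0.21 ± 0.081, and the median was 0.01. Of the immune markers Csf1r gave 2825, 3293 and 2726 (0.45 ± 0.12), Itgam 1915, 2063 and 1894 (0.34 ± 0.12) and Cd68 531, 378 and 482 (-0.26 ± 0.17), with a median of 0.04 over the 6 detected on at least 1 array and 0.23 over the 5 detected on all 3.

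**Figure D4:**
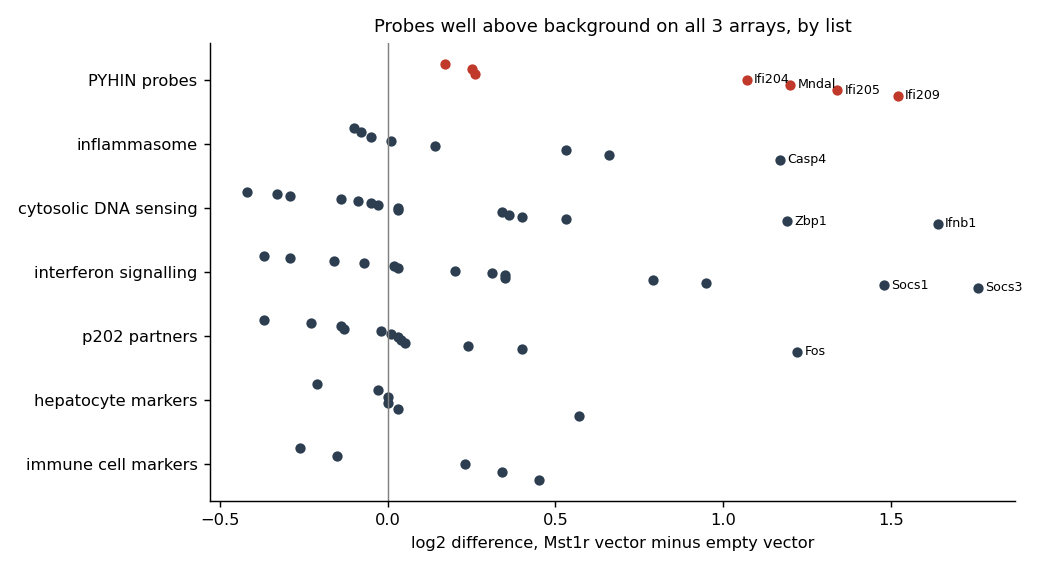
Log2 difference of scaled signal between the Mst1r vector and empty vector arrays for probes well above background on all 3 arrays, 1 point per probe, with the 7 PYHIN probes on top and 1 probe per gene in each list below. Points at or above 1 are named, and they make up 4 of the 7 PYHIN probes, which were chosen from this contrast. In the lists they make up 2 of 15 DNA sensing genes, 2 of 14 interferon signalling genes, 1 of 8 inflammasome genes and 1 of 12 p202 partners. No marker gene is among them.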

How the data were processed

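Hepa1c1c7 RNA (100 ng) was labelled with Cy3 and hybridised to 3 Agilent arrays, 1 per group, on 1 slide in 1 scan. Slide position and group cannot be told apart. The authors deposited intensity values, which per the file headers were extracted with Feature Extraction 12.0.3.1 as background-subtracted, spatially detrended processed signals, with flags for spots above background. A deposited table of intensities held the same signals (within 0.01 log2 for at least 99.94% of probes).

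The log2 signal was averaged over unflagged spots of a probe, and log2 of the 75th percentile of all gene probes was subtracted (268, 229 and 254 for empty, Mst1r and Slpi vector). Accessions were named through a RefSeq table (GRCm38.p6), which matched 25122 of 47837. The technical SD came from 300 probes printed 10 times. It was 0.148 log2 for log2 signals of 6 to 8 and 0.389 for 4 to 6. Most of these probes were bright, and over the arrays 794 probe values lay at log2 signals of 14 to 20. Only 14 lay at 4 to 6, 21 at 6 to 8, 6 at 8 to 10, 9 at 10 to 12 and 16 at 12 to 14. The SD at most signals quoted here thus rests on few probes. The number of arrays limits the precision. Where a probe was dim, a bound was given, and probes under 15 were taken as dark. Ifi202b was set beside the 5 named genes nearest in signal with the same pattern. From each list the 2 highest and the lowest differences measured on both sides were named. The members and lists were chosen with earlier results of these data known. Some genes of the lists are not reported here. The code of the call rule was checked on simulated arrays, which gives no error rate between cultures. Normexp (limma 3.58.1, R 4.3.3) used median spot signals. Python 3.11.15 and pandas 2.3.3 were used.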

Additional observations from a re-analysis of the deposited data

How the results depend on the processing

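No paired analysis was possible because each group was 1 array. Over 13 alternatives, 389 of 483 recomputed values stayed within the spot error, or within 1.5 times for a count, 94 moved further, and no called value changed sign. Keeping flagged spots and using the deposited table each left all 48 of their values the same. Both settings hold nearly the same signals as the main one, so their agreement was nearly fixed in advance. With 1 array per group no replicate was left out, and no difference can be set against the spread between cultures. Probes near background had only bounds. The causes of the shifts below were not tested, except that a scaling moves all probes of an array together.

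Without scaling, the differences between Mst1r vector and empty vector were 0.03 for Aim2, 0.84 for Ifi204 and 1.11 for Ifi205, and the list medians were -0.25 (inflammasome), -0.20 (DNA sensing), 0.03 (interferon signalling), -0.22 (p202 partners), -0.22 (hepatocyte) and -0.19 (immune). Between Mst1r and Slpi vector they were 0.92 for Ifi204, 1.12 for Ifi205, and -0.06, -0.14, 0.13 and -0.15 for the inflammasome, DNA sensing, interferon signalling and hepatocyte lists.

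With median scaling, Slpi vector differed from empty vector by 0.17 for Ifi204 and 0.23 for Ifi205, and the medians were 0.19, 0.18, 0.17, 0.21 and 0.21 for the inflammasome, DNA sensing, interferon signalling, hepatocyte and immune lists. Mst1r vector differed from Slpi vector by 0.94 for Ifi204 and 1.14 for Ifi205, with medians of -0.04, 0.15 and -0.13 for the inflammasome, interferon signalling and hepatocyte lists. With spike-in scaling, Slpi vector differed from empty vector by -0.17 for Aim2, -0.24 for Ifi204 and -0.18 for Ifi205, with medians of -0.22, -0.22, -0.24, -0.16, -0.20 and -0.20 for the 6 lists in the order used above. Mst1r vector differed from Slpi vector by 1.20 for Ifi204 and 1.41 for Ifi205, with medians of 0.22, 0.41 and 0.14 for the inflammasome, interferon signalling and hepatocyte lists, and the hepatocyte median from empty vector was -0.09.

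With normexp, Ifi202b differed by 2.54 from empty vector and 2.49 from Slpi vector, as the offset lifts dim signals. In the lower rows alone, Ifi205 was represented by its dim probe, at 3.51 and 3.94 for Mst1r vector against empty and Slpi vector and -0.42 for Slpi against empty vector. There 2 p200 probes and 3 PYHIN probes were called higher in either Mst1r vector comparison, the hepatocyte median from empty vector was 0.23, and the inflammasome median from Slpi vector was -0.05. Averaging the probes of a gene gave 2.43 from empty vector and 2.61 from Slpi vector for Ifi205 on the Mst1r array, -0.18 for Slpi against empty vector, and -0.05 for the inflammasome median from Slpi vector. At 10-fold, 3 p200 probes and 3 PYHIN probes were called higher in both Mst1r vector comparisons, and with a signal minimum of 200, 3 p200 probes were. Over all probes, those called higher with Mst1r vector than with empty vector numbered 308 at 10-fold, 1536 with no minimum, 219 with a minimum of 200 and 491 with normexp, beside 894. The immune median was 0.23 over members detected on all arrays.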
